A study of Mus musculus with 32 samples.

Results

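FFPE mouse kidney was set against frozen mouse kidney in the RNA pulled down with an antibody to N6-methyladenosine (m6A). The members were the genes with a deposited log2 value of at least 1 in either kidney column, and 10730 of the 27179 genes in the table met this rule. Of these, 9709 reached the level in both columns, 547 in FFPE kidney alone and 474 in frozen kidney alone. Members just inside the rule had log2 values such as 1.02 in FFPE and 0.66 in frozen kidney, and genes just outside it values such as 0.44 and 0.99. FFPE kidney was tissue fixed in 10% formalin, embedded in paraffin and deparaffinized before RNA extraction. Frozen kidney was flash-frozen tissue that went into the same Trizol extraction, 20 min of ultrasonic shearing in plates, pulldown and total RNA library preparation with depletion of ribosomal RNA. The labels give the species and the organ and list 2 runs for each preservation. Strain, sex, age, feeding state, time of collection and number of animals are not given in the sources used here, nor whether the FFPE and frozen tissue came from the same animals. The table holds 1 column a side, so no difference below has a replicate check.

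The mark m6A is a methyl group on adenosines of messenger and noncoding RNA, laid down by a writer complex around METTL3 and METTL14 and read by YTH proteins. An antibody pulldown enriches fragments that carry it. Formalin links RNA to protein and to itself, and embedding and storage break it into short pieces. The kidney filters blood in the glomerulus, recovers most solutes in the proximal tubule, builds its salt gradient in the loop of Henle, and tunes salt, water and acid in the distal tubule and the collecting duct. The proximal tubule burns fatty acids and makes glucose. Input RNA was not analysed here, so a value below is an amount in the pulled-down RNA, and abundance and methylation cannot be told apart in it.

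The FFPE kidney library held 18481063 gene counts and the frozen kidney library 13417818. Ribosomal genes took 72.7% of the FFPE counts (95% Wilson interval 72.7 to 72.8%) and 65.6% of the frozen counts (65.6 to 65.7%), which left 5039792 and 4610146 counts for other genes. A count was seen for 17960 genes in FFPE and 22708 in frozen kidney. All intervals cover counting error alone, because there is 1 library a side. No molecular identifiers marked PCR copies of a molecule, so copies counted as separate molecules could make the intervals too narrow. The authors' column scaling divided the counts by 1.06 times the total in FFPE and 1.63 times the total in frozen kidney. Scaling by total gene counts instead would lower every difference by about 0.63 on the log2 scale, and scaling by counts outside the ribosomal genes by about 0.30. Differences are therefore read beside the median of all members, which shifts with them. That median was -0.55 with totals and -0.22 with counts outside the ribosomal genes. A list median that turns below 0 with totals keeps its distance from the median of all members.

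Most transcripts kept their level between FFPE and frozen kidney to within a factor of 2. The difference, FFPE minus frozen, had a median of log2 0.08 over the 10730 members with quartiles of -0.22 and 0.36, and 94.4% of members lay within 2-fold. A gene is called here when it differed at least 2-fold and its exact 95% counting interval left out equality. By this rule 322 genes, or 3.0% of members, were higher in FFPE kidney and 279, or 2.60%, were lower. The interval removed 0 of the members that differed at least 2-fold, so these calls equal a plain 2-fold cut. With totals as the scale the split was 82 higher and 1701 lower, and with counts outside the ribosomal genes 145 higher and 586 lower. At 4-fold, 47 genes were higher (0.438%) and 25 lower (0.233%). Across the members the levels in both libraries correlated with Pearson r = 0.926 and Spearman's rho = 0.940, as a description over genes, which are not independent replicates.

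**Figure D1:**
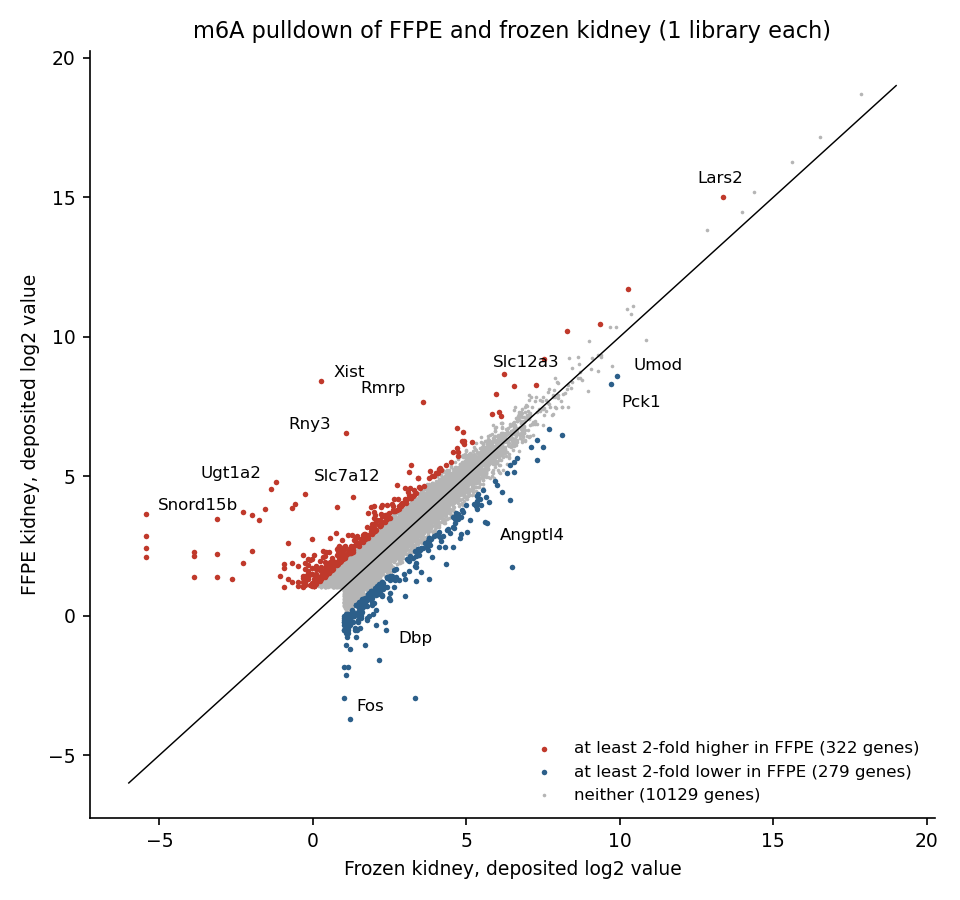
Deposited log2 values of the 10730 member genes in FFPE kidney (vertical axis) against frozen kidney (horizontal axis), 1 library each, with the line of equal values. Of these genes, 322 (red) were at least 2-fold higher in FFPE and 279 (blue) at least 2-fold lower. Xist and small RNA genes lie furthest above the line and Angptl4 and Fos below it.

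The gene with the highest bound of all was Xist, a long noncoding RNA that silences 1 X chromosome in cells of females (chromosome X, 103460373 to 103483233, GRCm38.p6). It had 6685 counts in FFPE kidney and 26 in frozen kidney, a log2 difference of 8.15 (95% counting interval 7.62 to 8.79). Its neighbours at the X inactivation centre differed in the same direction but less. Jpx, an activator of Xist, had 52 counts in FFPE and 27 in frozen kidney and was called higher. Ftx had 176 and 87 counts. Genes of the Y chromosome had counts in both libraries. Ddx3y, an RNA helicase gene, had 125 counts in FFPE and 294 in frozen kidney (log2 -1.06, interval -1.38 to -0.76) and was the 1 called gene of 4 Y-linked members. The other members were Kdm5d (109 in FFPE and 180 in frozen), Uty (124 and 213) and Eif2s3y (90 and 185), and all 4 were below equality. Usp9y had 0 and 9 counts, Zfy1 1 and 4, Zfy2 0 and 1, and Sry 0 and 1, below the level of a member. Of 6 X-linked members that escape inactivation, 0 were called, with a median difference of 0.36. With totals as the scale it was -0.27, against -0.55 over all members. The part of sex, or of mixed animals, in these values was not tested.

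Genes known for a sex bias in mouse kidney did not differ in 1 direction. Among 7 members of a list higher in female kidney, 3 were higher in FFPE and 1 lower. Slc7a12, an amino acid transporter gene (chromosome 3), had 402 counts in FFPE and 18 in frozen kidney (log2 4.61, interval 3.97 to 5.42). Prlr, the prolactin receptor gene, had 824 and 200 counts, and Hao2, a peroxisomal hydroxyacid oxidase gene, 1124 and 584. Cyp4a14, on the same list, ran the other way with 418 counts in FFPE and 1550 in frozen kidney. Among 13 members of a list higher in male kidney, 2 were lower in FFPE (Acsm3 with 1287 and 3912 counts, Hsd11b1 with 172 and 526) and 1 was higher (Odc1, with 1486 and 663). Kap, the androgen-regulated kidney protein gene, had 18227 counts in FFPE and 40753 in frozen kidney (log2 -0.99), just inside 2-fold. The medians of the female and male lists were 0.64 and -0.15, against 0.08 over all members.

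Small structured noncoding RNAs filled most of the top of the ranking. The group of RNase P, RNase MRP, 7SK, Y, vault and minor spliceosomal RNAs had 8 members, and 8 of 8 were higher in FFPE, with a median log2 difference of 4.31. Of these, 4 reached the level in FFPE alone and had to differ, so the count is a description. The other 4 (Rny3, Rmrp, Rpph1 and Rn7sk) reached it in both columns. The 4 listed genes below level had at most 4 counts on either side. Rmrp, the RNA of the ribosome-processing enzyme RNase MRP, had 3968 counts in FFPE and 262 in frozen kidney (log2 4.09, interval 3.91 to 4.27). Rny3 and Rny1, the Y RNAs bound by the Ro protein, had 1837 and 456 counts in FFPE, against 46 and 8 in frozen kidney. Vaultrc5, a vault RNA, had 255 and 4 counts, and Rnu12 and Rnu11, RNAs of the minor spliceosome, 279 and 119 in FFPE against 13 and 12 in frozen. The abundant Rpph1, the RNA of the tRNA-trimming enzyme RNase P, had 7889 counts in FFPE and 1640 in frozen kidney (log2 2.43, interval 2.36 to 2.51). Rn7sk, which holds back transcription elongation, had 11543 and 4046 (log2 1.68).

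Small nucleolar and Cajal body RNAs, which guide chemical modification of ribosomal and spliceosomal RNA, behaved alike among those at level. Among 128 such genes listed, 16 were members, and 16 of 16 were higher in FFPE, with a median of 4.88, or 4.78 with genes at 0 set to their bound. All 16 reached the level in FFPE alone, so this count is a description and gives no support. Snord15b had 245 counts in FFPE and 0 in frozen kidney, at least 91.7-fold higher when 3 counts are allowed for the frozen library. Snora73a had 142 and 0 counts (at least 53.2-fold higher), Snora73b 240 and 5, Snord17 277 and 7, Snora81 209 and 6, and Snord22 310 and 14. Scarna2, Snord32a and Scarna13 had enough counts on both sides for a ratio: 153, 79 and 88 in FFPE against 36, 19 and 22 in frozen kidney. Over the whole list the summed counts were 3004 in FFPE and 269 in frozen kidney. Most of these genes lie in introns of host genes, and reads of a host could have been counted for either. The 6 small nucleolar RNA host genes at level had a median difference of 0.44 and 0 were called. With totals as the scale their median was -0.19, against -0.55 over all members.

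**Figure D2:**
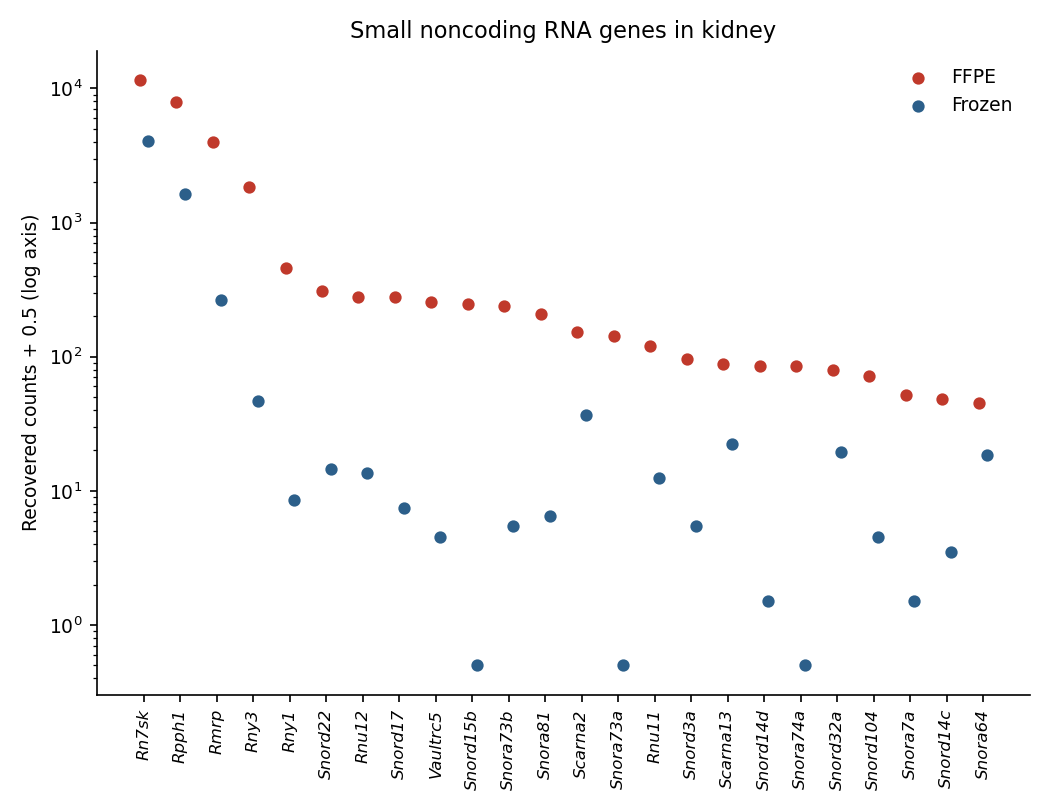
Recovered counts plus 0.5 on a log axis for the 24 small noncoding RNA genes at level in kidney, FFPE (red, left point) and frozen (blue, right point), 1 library each. Every FFPE point lies above its frozen partner, and Snord15b, Snora73a and Snora74a had 0 counts in frozen kidney.

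Of 3 microRNA genes at level, 1 was called. Mir568 had 19 counts in FFPE and 64 in frozen kidney (log2 -1.56, interval -2.41 to -0.83). Its hairpin lies within the span of Tigit on chromosome 16, so the counts need not come from the microRNA. Its mature sequence (RefSeq, GRCm38.p6, chr16:43640665-43640684, plus strand) is shown with the seed, bases 2 to 8, in capitals:
mmu-miR-568: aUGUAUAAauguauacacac

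Transcripts for fat burning and fasting were lower in FFPE kidney. The nuclear receptor PPAR alpha senses fatty acids during a fast and switches on genes for fatty acid oxidation in mitochondria and peroxisomes, and lipid handling. Angptl4, a secreted inhibitor of lipoprotein lipase, had 193 counts in FFPE and 1115 in frozen kidney (log2 -2.36, interval -2.59 to -2.14). Cyp4a10, a fatty acid omega-hydroxylase, had 345 and 1858 counts (log2 -2.26), and Vnn1, a pantetheinase, 154 and 711 (log2 -2.04). Cyp4a10, Cyp4a14 and Cyp4a31 are close paralogs, and reads could have been split among them.

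A list of 33 PPAR alpha targets, chosen after these values were seen, had 29 members, of which 21 were lower in FFPE, 0 higher and 29 of 29 below equality. Its median log2 difference was -1.29, against 0.08 over all members. The acyl-CoA thioesterase genes Acot1 and Acot2 had 149 and 106 counts in FFPE against 626 and 429 in frozen kidney. They are near-identical neighbours on chromosome 12, while their relatives Acot3 (102 in FFPE and 154 in frozen) and Acot4 (193 and 268) were not called. In peroxisomes, Ehhadh, the bifunctional enzyme of beta-oxidation, had 1733 and 6027 counts (log2 -1.63, interval -1.71 to -1.55), Crot, the octanoyl carnitine transferase gene, 930 and 3440, and Acaa1b, a thiolase gene, 687 and 2066. For entry into mitochondria, the carnitine shuttle genes Cpt2 (369 in FFPE and 1082 in frozen) and Slc25a20 (143 and 349) were called lower, while Cpt1a (1669 and 2895, log2 -0.63) was not. Of 20 members on the fatty acid oxidation list 7 were lower, 0 higher and 0 above equality, with a median of -0.70.

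On the list for gluconeogenesis and fasting, 8 of 12 members were lower in FFPE and 0 higher, with a median of -1.69. Pck1, the gluconeogenic enzyme PEPCK (chromosome 2, 173153073 to 173159274), had 6161 counts in FFPE and 18421 in frozen kidney (log2 -1.41, interval -1.45 to -1.37). Pdk4, the kinase that shuts pyruvate out of the citric acid cycle, had 330 and 1171 counts (log2 -1.66). Other genes of glucose synthesis were not called: G6pc, the last enzyme, had 2632 and 2851 counts (log2 0.05), and Fbp1 1562 and 2060 (log2 -0.23). Ppargc1a, the coactivator of the programme, had 800 and 931 counts (log2 -0.05). The long noncoding gene Gm15441, singled out after its values were seen, had the deepest bound of any member, with 2 counts in FFPE and 218 in frozen kidney (log2 -6.28, interval -9.66 to -4.73). It lies across Txnip on chromosome 3. Txnip, a thioredoxin inhibitor gene, had 2302 and 3167 counts (log2 -0.29). The sources used here do not give the strand setting of the counting, so reads of overlapping genes may have been mixed. The part of feeding state in these values was not tested.

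The same lists were set beside the other organs, each with 1 library a side. The PPAR alpha targets had a median difference of -0.48 over 14 genes at level in brain, -0.56 over 21 in heart and -1.07 over 29 in liver. As a baseline, 16 common reference genes had medians of -0.01 in kidney, -0.55 in brain and 0.37 in heart. The 15 of them at level in liver had a median of 0.25. In brain the targets were thus not lower than the reference genes. Crot, at -1.72 in kidney, differed by -0.03 in brain, -0.24 in heart and -0.06 in liver. Angptl4, at -2.36 in kidney, differed by -4.36 in heart and -0.16 in liver, and was below level in brain, with 8 counts in FFPE and 42 in frozen. The kidney difference of Crot was larger in size than that of each other organ, and that of Angptl4 larger than in liver and smaller than in heart, without a test of these differences.

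**Figure D3:**
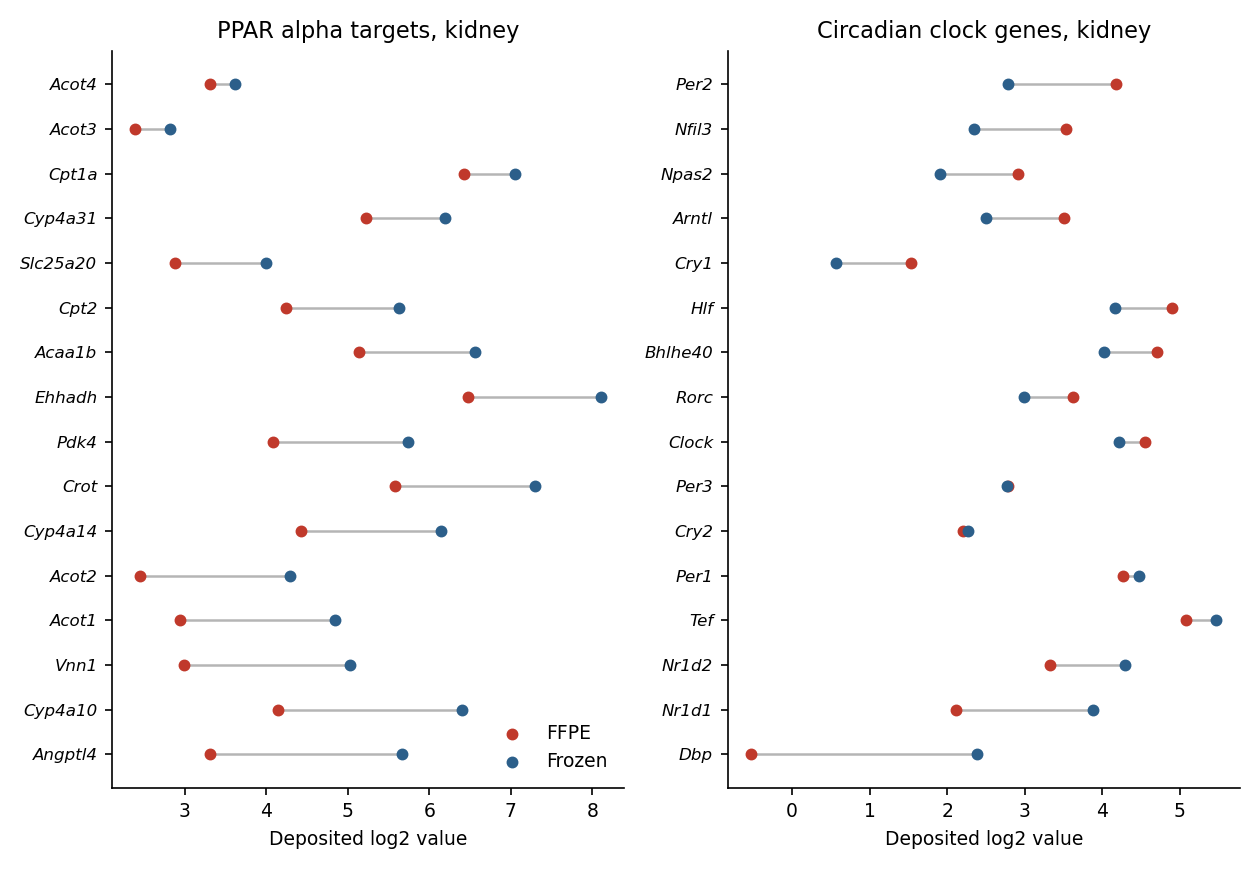
Deposited log2 values in FFPE (red) and frozen kidney (blue), 1 library each, of the 16 PPAR alpha targets named in the text (left panel) and 16 circadian clock genes (right panel), sorted by their difference. The FFPE point lies to the left for 16 of 16 targets, while clock genes lie on both sides, from Per2 at the top to Dbp at the bottom.

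Circadian clock genes were called in both directions. CLOCK or NPAS2 with BMAL1 (the product of Arntl) switch on genes through E-boxes, among them the repressors PER and CRY, the nuclear receptors REV-ERB (Nr1d1, Nr1d2) and the D-box factors DBP, TEF and HLF. REV-ERB in turn silences Arntl, Npas2 and Nfil3. Of 16 members 4 were higher in FFPE and 2 lower, with a median difference of 0.49. With totals as the scale it was -0.14, against -0.55 over all members. Dbp had 13 counts in FFPE and 114 in frozen kidney (log2 -2.92, interval -3.92 to -2.13). Nr1d1 had 84 and 322 counts (log2 -1.76, interval -2.14 to -1.42), and Nr1d2 195 and 428 (log2 -0.96). The activators ran the other way: Arntl had 222 counts in FFPE and 124 in frozen kidney (log2 1.01, interval 0.68 to 1.34) and Npas2 147 and 82 (log2 1.01). Nfil3, a repressor at D-boxes, had 226 and 111 counts (log2 1.19). Per2 had 351 and 150 counts (log2 1.39, interval 1.11 to 1.68), while Per1 had 374 and 488 and Per3 134 and 149. The shift of -0.63 with totals as the scale takes each of the 4 higher genes below 2-fold. In liver the same genes differed further: Dbp by -4.90, Nr1d1 by -3.24, Arntl by 2.25, Npas2 by 2.73 and Nfil3 by 2.09, while Per2 was at -1.21. In heart Dbp differed by -0.17, Nr1d1 by -1.42, Arntl by 0.64, Npas2 by 0.10, Nfil3 by 0.85 and Per2 by 0.83. In brain the values were -0.34, -0.30, 0.39, 0.27, -0.50 and 0.73, in the same order. Time of collection was not given, and its part was not tested.

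The promoters of clock genes are shown because clock factors act through shared short elements. RefSeq promoter windows (GRCm38.p6, 250 bases before to 50 after the start, gene strand) were found for 13 of the 16 members and searched on both strands. The E-box CACGTG was in the window of 3 (Cry1, Per1 and Tef) and in 7.15% of all 32851 windows. The core TAGGTCA of the element bound by REV-ERB and ROR was in 2 (Arntl and Nfil3, both called higher) and in 2.61% of all windows. The D-box TTACATAA was in 1 (Per3, with both copies inverted) and in 0.938% of all windows. Members were counted by gene and the shares by window, and a gene can have more than 1 window, so these are unlike measures. A match describes the letters and does not show binding. Motif letters are in capitals, with 11 bases of context for Arntl, whose match starts at transcribed base 31, and 20 for the others (Arntl chr7:113207530-113207558, plus strand; Nfil3 chr13:52981025-52981071, minus strand; Cry1 chr10:85185089-85185134, minus strand; Per1 chr11:69098763-69098808, plus strand; Per3 chr4:151044796-151044890, minus strand):
Arntl: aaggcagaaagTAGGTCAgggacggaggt
Nfil3: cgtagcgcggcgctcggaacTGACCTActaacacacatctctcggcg
Cry1: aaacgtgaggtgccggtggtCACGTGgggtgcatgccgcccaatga
Per1: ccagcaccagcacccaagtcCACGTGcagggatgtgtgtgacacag
Per3: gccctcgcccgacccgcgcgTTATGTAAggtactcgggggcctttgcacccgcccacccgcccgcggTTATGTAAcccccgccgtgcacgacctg

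Immediate early genes, which respond to stimuli without new protein synthesis, had 7 of 17 members lower in FFPE kidney and 0 higher, with a median of -0.64. Fos had 2 counts in FFPE and 44 in frozen kidney (log2 -3.99, interval -7.38 to -2.35). Egr1 had 48 and 176 counts, Ccn1 99 and 297, Junb 51 and 142, Ier2 40 and 107, and Nr4a1 20 and 52. Dusp1, a phosphatase that ends MAP kinase signals, had 215 and 545 counts (log2 -1.17, interval -1.41 to -0.94). Myc (67 and 56), Btg2 (156 and 147) and Ier5 (159 and 158) were not called. The cyclic AMP response element TGACGTCA reads the same on both strands. Counted by gene, it was in a promoter window of 2 of 14 members with one, Btg2 and Dusp1. Counted by window, it was in 1.79% of all windows. The Dusp1 window around it (RefSeq, GRCm38.p6, chr17:26508588-26508635, minus strand) carries the element 143 bases before the start, in capitals:
Dusp1: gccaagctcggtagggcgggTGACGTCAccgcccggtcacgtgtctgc

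Other stress and metabolic groups held few calls. Of 12 members of the glucocorticoid response 2 were lower (Pdk4 and Mt2) and 0 higher, with a median of -0.48. Mt2, a metallothionein gene, had 30 counts in FFPE and 71 in frozen kidney. With totals as the scale the median of all members was -0.55. Heat shock genes had 0 calls among 11, with a median of 0.38 that turned to -0.25 with totals as the scale. Of 10 endoplasmic reticulum stress genes 1 was higher, Sdf2l1, with 72 and 29 counts, and the median of 0.50 turned to -0.13 with totals. Hspa5, the main chaperone of that compartment, had 3500 and 2102 counts (log2 0.90). Of 17 cholesterol synthesis members 2 were higher and 0 lower. Msmo1, a sterol demethylase, had 81 counts in FFPE and 45 in frozen kidney, and the list median of 0.49 turned to -0.14 with totals. Nuclear-encoded subunits of complex I had 1 lower call among 37 (Ndufa1, 142 and 333 counts) and a median of -0.45. Glycolysis genes had a median of -0.12 with 1 lower call among 17, Aldoc, with 16 and 60 counts.

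Protein genes of the mitochondrial genome lay mostly above equality, unlike the nuclear-encoded subunits. The earlier list used names that matched no gene, and the 13 mitochondrial protein genes were matched by the table's own names after the data were seen. Of these 5 were higher in FFPE, 0 lower and 12 above equality, with a median of 0.79. Scaling by totals left 0 higher and 1 lower, with a median of 0.16, and called 22 of the 37 nuclear-encoded complex I genes lower. COX1, a core subunit of cytochrome oxidase, had 64706 counts in FFPE and 26882 in frozen kidney (log2 1.43, interval 1.41 to 1.46). ND1, of complex I, had 27595 and 14411 counts (log2 1.10), CYTB, of complex III, 39655 and 26415 (log2 0.75), and ND4L 27 and 45 (log2 -0.56).

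**Figure D4:**
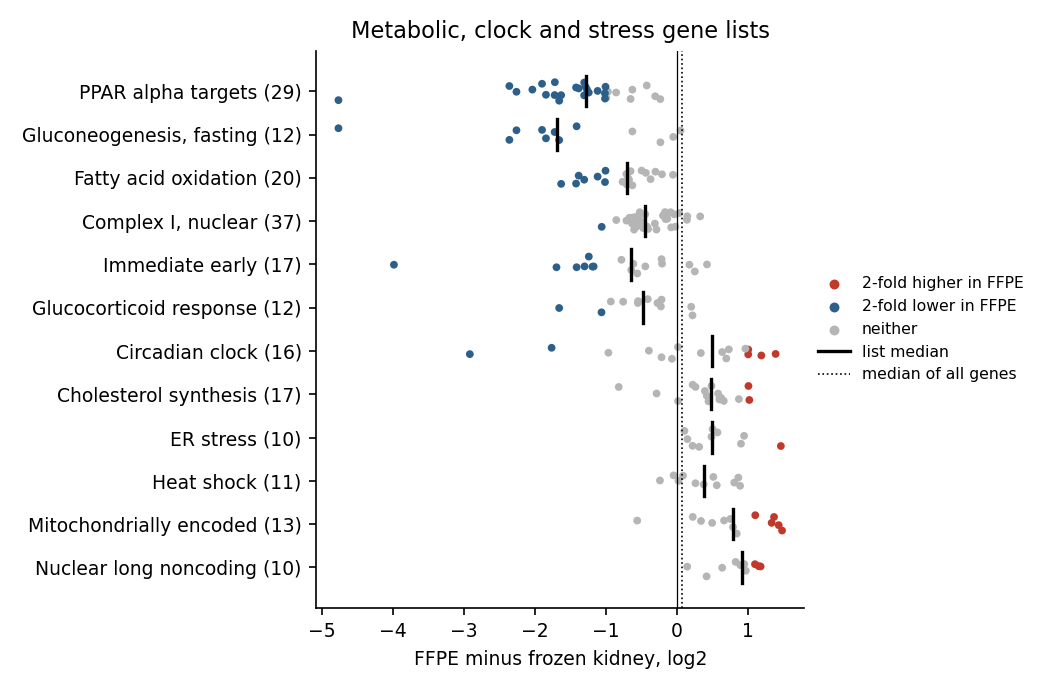
Log2 difference, FFPE minus frozen kidney, of each member (points) of 12 gene lists, with list medians (bars), the median of all members (dotted line) and the number of members in brackets. Red and blue points passed the 2-fold call. The medians of the clock, cholesterol, ER stress and heat shock lists lie right of 0 with the authors' scaling and left of 0 with totals. With totals the median of all members is -0.55, and these list medians stay above it.

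Every gene on the 6 nephron lists had counts in FFPE and in frozen kidney. That alone does not check the tissue label, since 12 of 12 cardiomyocyte genes had counts in FFPE and 11 in frozen kidney. Median log2 levels of members in FFPE and frozen kidney were 6.76 and 6.46 for proximal tubule and 3.30 and 2.61 for principal cell markers. They were 1.12 and 1.75 for cardiomyocyte and 1.59 and 3.31 for hepatocyte markers. In bulk tissue, fewer cells of a type and less RNA per cell cannot be told apart. The segments differed in direction. Distal convoluted tubule markers had 4 of 14 members higher in FFPE and 0 lower, with a median of 0.73. Slc12a3, the thiazide-sensitive salt transporter that defines this segment (chromosome 8, 94329109 to 94366222), had 5860 counts in FFPE and 2054 in frozen kidney (log2 1.68, interval 1.61 to 1.75). Slc8a1, the sodium-calcium exchanger, had 4802 and 1381 counts (log2 1.97), Calb1, the calcium buffer calbindin, 1857 and 648 (log2 1.69), and Pvalb, parvalbumin, 71 and 35. Kcnj16, a potassium channel gene on the same list, had 3192 and 3653 counts. By totals, 3 of the 14 were called higher, with a median of 0.10.

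Along the collecting duct, intercalated cell markers had 7 of 16 members higher and 0 lower, with a median of 0.95. Slc26a4, the chloride-bicarbonate exchanger pendrin, had 466 counts in FFPE and 174 in frozen kidney (log2 1.59, interval 1.33 to 1.85). Slc4a9, a bicarbonate transporter gene of the same cells, had 463 and 194 counts, the ammonia channel genes Rhbg and Rhcg 122 and 472 in FFPE against 57 and 239 in frozen, and Insrr, an alkali-sensing receptor, 308 and 131. Scaling by totals left 0 of these 16 called and a median of 0.32, and scaling by counts outside ribosomal genes left 3 called. Principal cell markers had 2 of 14 higher, Kcne1 (103 and 38) and the water channel gene Aqp4 (308 and 160), and a median of 0.81. By totals, 0 of them were called and the median was 0.18. The vasopressin-regulated water channel gene Aqp2 had 566 and 513 counts (log2 0.31).

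Loop of Henle markers lay mostly on the other side, with 2 of 14 lower, 1 higher and a median of -0.52. Their differences ranged from -1.30 to 1.52, with 11 members below equality and 3 above it. Umod, which encodes uromodulin of the thick ascending limb (chromosome 7, 119462708 to 119479262), had 7551 counts in FFPE and 20940 in frozen kidney (log2 -1.30, interval -1.34 to -1.27). Cldn19, a tight junction gene for magnesium uptake, had 87 and 241 counts, and Slc12a1, the furosemide-sensitive transporter, 5152 and 10914 (log2 -0.92). Egf had 8500 and 13648 counts (log2 -0.52). By totals, 8 of the 14 were lower and 0 higher.

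Proximal tubule markers varied widely among themselves, with 5 of 29 higher and 1 lower. Their median of 0.42 turned to -0.21 with totals as the scale, and the calls to 1 higher and 6 lower. Over all members totals gave a median of -0.55, with 82 genes higher and 1701 lower. Gatm, the first enzyme of creatine synthesis, had 2052 counts in FFPE and 570 in frozen kidney (log2 2.01, interval 1.88 to 2.15). Slc5a2, the glucose transporter SGLT2 of the early proximal tubule, had 1509 and 638 counts (log2 1.41), Slc5a12, a lactate transporter gene, 2900 and 1254, Miox, an inositol-degrading oxygenase gene, 3106 and 1464, and Slc22a8, an organic anion transporter gene, 1374 and 656. The uptake receptor genes Lrp2 and Cubn had 25698 and 3571 counts in FFPE, against 17891 and 2740 in frozen kidney. At the low end Pck1 was called lower, and Slc27a2, a fatty acid transporter gene (9539 and 18900), and Slc7a13, an amino acid transporter gene of the last proximal segment (1179 and 2306), lay at log2 -0.82 and -0.80. Podocyte markers had 1 of 17 higher, the slit diaphragm gene Nphs1 (219 and 86 counts, log2 1.51), and a median of 0.50 that turned to -0.13 with totals, with 0 called.

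**Figure D5:**
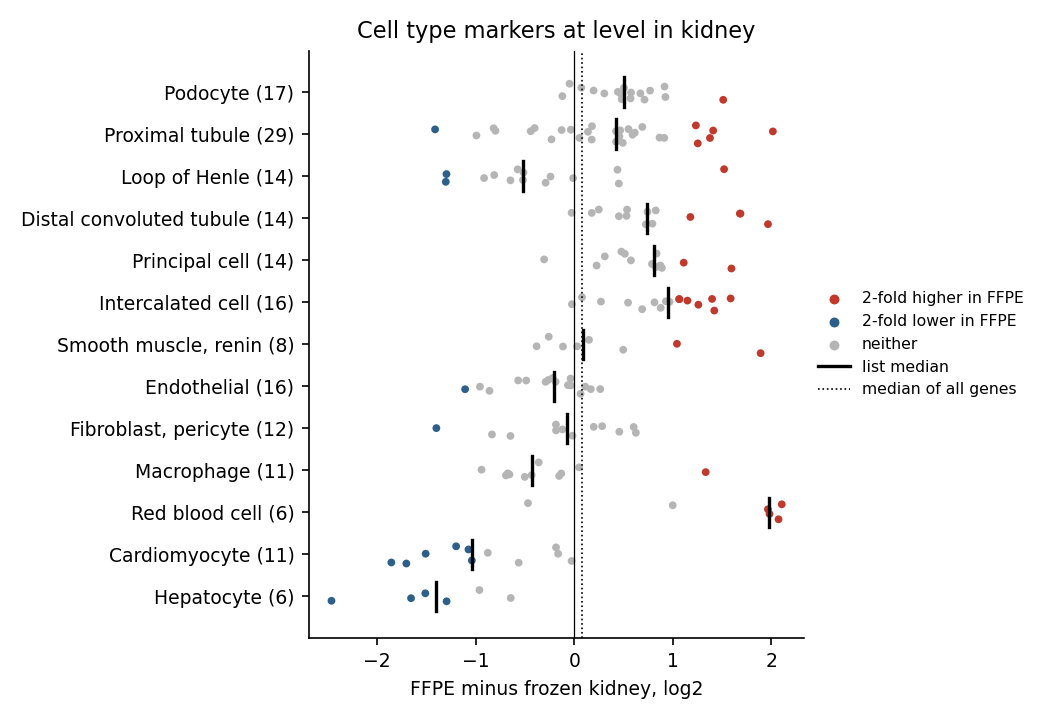
Log2 difference, FFPE minus frozen kidney, of each member (points) of 13 cell type marker lists, with list medians (bars), the median of all members (dotted line) and the number of members in brackets. Red and blue points passed the 2-fold call. The medians of the distal and collecting duct lists lie right of the dotted line. Those of the loop of Henle, cardiomyocyte and hepatocyte lists lie left of it. With totals as the scale the proximal tubule, podocyte and smooth muscle medians fall below 0. The median of all members falls with them, to -0.55.

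Of 242 solute carrier genes at level, 19 were higher in FFPE and 8 lower, with a median of 0.20. Over all members 3.0% were higher and 2.60% lower. By totals, 5 solute carrier genes were higher and 37 lower, with a median of -0.43. The same scale called 82 of all 10730 members higher and 1701 lower, with a median of -0.55. Besides those above, Slc34a3, a phosphate transporter gene of the proximal tubule, had 143 counts in FFPE and 48 in frozen kidney, and Slc7a8, an amino acid exporter gene, 1134 and 521. On the lower side Slc38a3, a glutamine transporter gene, had 106 and 287 counts, and Slc39a8, a metal transporter gene, 155 and 381. Of 30 cytochrome P450 members 2 were higher and 4 lower. The lower ones were Cyp4a10, Cyp4a14, Cyp2d9 (132 and 604) and Cyp7b1, an oxysterol hydroxylase gene with 201 and 1073 counts (log2 -2.25, interval -2.47 to -2.03). In liver Cyp7b1 ran the other way, at 4.43. Ugt1a2, a glucuronosyltransferase gene on chromosome 1, had 537 counts in FFPE and 9 in frozen kidney (log2 5.99, interval 5.13 to 7.20). It shares its last exons with the other Ugt1a genes, so reads could have been assigned to several of them.

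Outside the epithelium, Ren1, the renin gene of the juxtaglomerular cells, had 252 counts in FFPE and 76 in frozen kidney (log2 1.89, interval 1.52 to 2.29), and Acta2, smooth muscle actin, 180 and 98. The other 6 smooth muscle members were not called. Endothelial markers had 1 of 16 lower, Plvap, the gene of the fenestral diaphragm (552 and 1337 counts), and a median of -0.20. Fibroblast and pericyte markers had 1 of 12 lower, Pdgfra, a growth factor receptor gene (295 and 875), and a median of -0.07. Macrophage markers had a median of -0.43 with 1 of 11 higher, the chemokine receptor gene Cx3cr1 (41 and 18).

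Haemoglobin transcripts were higher in FFPE kidney. Of 6 red blood cell members 4 were higher and 0 lower, with a median of 1.97 that was 1.0 with a log2 of at least 3 as the filter, and 3 of the 6 reached the level in FFPE alone. The 4 called were haemoglobin genes: Hbb-bs had 300 counts in FFPE and 86 in frozen kidney (log2 1.96, interval 1.62 to 2.33), Hbb-b1 68 and 19, Hba-a1 78 and 20, and Hba-a2 80 and 21. The alpha genes are near-identical copies, as are the beta genes. The list also holds Slc25a37, a mitochondrial iron carrier gene (221 and 124), and Bpgm, a glycolytic gene of red cells (138 and 215, log2 -0.47), which were not called. Igkc, the kappa light chain constant gene, had 89 and 2 counts (log2 5.33, interval 3.75 to 8.71), and Jchain, the chain that joins antibody units, 36 and 4, below the level of a member. Igkc reached the level in FFPE alone, and Ptprc, a gene of all white blood cells and the other lymphocyte member, had 96 and 109 counts. Of the 14 lymphocyte genes in the table, 4 were at 0 in FFPE and 1 in frozen kidney, and Cd79a, a B cell receptor gene, was at 0 in both. Of 12 adipocyte genes 4 were members: Cfd, the adipsin gene, had 50 and 2 counts (log2 4.50, interval 2.88 to 7.90) and Car3 133 and 32, while Lipe (80 and 139) and Fabp4 (177 and 357) were not called. Adipoq, the adiponectin gene, had 10 and 1 counts. The part of attached fat or residual blood was not tested.

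Transcripts of heart muscle and liver were lower in FFPE kidney. Of 11 cardiomyocyte members 6 were lower, 0 higher and 0 above equality, with a median of -1.04. Myh6, the heavy chain of cardiac myosin, had 209 counts in FFPE and 766 in frozen kidney (log2 -1.70, interval -1.93 to -1.48), and Myl2, a ventricular light chain, 22 and 91. Over the 12 listed genes the FFPE kidney had 1615 counts and frozen kidney 3177, which is 0.296% and 0.600% of the counts of the same genes in the heart library of the same preservation. Of 6 hepatocyte members 4 were lower and 0 higher, with a median of -1.40. Alb, the albumin gene, had 48 and 300 counts (log2 -2.46, interval -2.95 to -2.03), and Fga, of fibrinogen, 123 and 395. Summed over the 16 listed hepatocyte genes the counts were 2565 in FFPE and 5044 in frozen kidney, with 2 and 1 genes at 0. These sums are 1.21% and 1.45% of the counts of the same genes in the liver library of the same preservation. By gene the hepatocyte share had a median of 0.127% and 0.302% and a maximum of 6.31% and 5.23%. The heart and liver shares are of raw counts, without correction for library size. Scaled library sizes were larger in kidney than in heart and liver. On the authors' scale the shares would be lower, most of all against FFPE liver. The serum protein genes Serpina1d (69 and 445) and Itih2 (6 and 97) were among the 15 lowest genes. The part of RNA from other organs in these counts was not tested. The adrenal list, with 14 counts in FFPE and 52 in frozen, and the urothelium list, with 59 and 126, had 0 members.

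Among the lowest genes outside these lists, Lrp1b, a large receptor gene, had 1 count in FFPE and 50 in frozen kidney (log2 -4.91, interval -10.81 to -2.93). Upp2, a uridine phosphorylase gene, had 16 and 110 counts. Ppp1r1b, the phosphatase inhibitor DARPP-32, had 107 and 517, Hsd17b2, a steroid dehydrogenase gene, 9 and 70, and Gem, a small GTPase gene, 31 and 176. The log2 differences of these 4 were -2.58, -2.10, -2.72 and -2.32. At the abundant end Lars2, a mitochondrial leucyl-tRNA synthetase gene, took 3.44% of all FFPE counts (95% Wilson interval 3.43 to 3.45%) and 1.70% of frozen counts (1.70 to 1.71%). The nuclear long noncoding RNA Malat1 had 281566 and 161314 counts (log2 0.97), and Neat1, which builds paraspeckles, 12081 and 8716 (log2 0.64). Of 10 nuclear long noncoding members 3 were higher, 0 lower and 10 above equality, with a median of 0.92. Both by totals (median 0.29) and by counts outside ribosomal genes (median 0.63), 0 of them were called.

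The spread of the differences did not run 1 way with level. Its interquartile range was 0.62 over 5068 members with a mean log2 between 1 and 3, 0.47 over 4070 between 3 and 5, 0.47 over 931 between 5 and 7, and 0.77 over 117 above 7. The 544 members with a mean under 1 held 92 of the higher and 95 of the lower calls, but such genes became members through 1 high column, so their spread is set by the rule. Among protein-coding members, 991 genes spanning under 5 kb had a median difference of -0.10 and 566 genes spanning over 200 kb one of 0.15. Genomic span includes introns and is not transcript length.

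Set beside the other organs, 166 of the 322 higher genes (51.6%) and 159 of the 279 lower genes (57.0%) were not called the same way in brain, heart or liver. The same rule over the same members called 285 genes (2.66%) higher and 600 (5.59%) lower in FFPE brain, 484 (4.51%) and 589 (5.49%) in heart, and 878 (8.18%) and 615 (5.73%) in liver. Liver shared 109 of the higher genes, 33.9% of the kidney calls and 12.4% of its own, and brain 67, 20.8% and 23.5%. Heart shared 69, 21.4% and 14.3%. Of the lower genes brain, heart and liver shared 56, 59 and 55, between 19.7% and 21.1% of the kidney calls. In all 4 organs 24 genes were higher, among them Xist, Rmrp, Rny1 and Snord17, and 7 were lower, among them Acot2, Ddx3y and Mt2. Genes were not required to be at level in the other organs: Acot2 in brain (13 counts in FFPE and 47 in frozen) and Rny1 in liver (9 and 2) were below it. These overlaps have no test, since each organ had 1 library a side.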

How the data were processed

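RNA pulled down with an m6A antibody from FFPE and frozen mouse kidney was sequenced. Per the submitters' processing notes, HISAT2, featureCounts and limma were used against mm10, with no order or settings given. The authors deposited log2 normalized counts, 1 column for each organ and preservation. The table's name marks it as m6A. The sources used here do not say if 1 run or both make up a column. From the values, each is log2 of counts with 0.5 added, over a scaled library size. Counts were recovered as 0.5 × 2 to the power of the value minus the column minimum, minus 0.5, and 100% of values came out whole within 0.001, relative to 10000 for larger counts. The 8 columns of an m5C table, which fit no listed sample, were left out.

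Differences are FFPE minus frozen on the log2 scale. Ratios have exact conditional binomial (Clopper-Pearson) 95% intervals, and a gene is called at 2-fold with an interval that leaves out 0. A count of 0 allows up to 3 counts in that library. With 1 library a side there was no replicate test and no p-value. Symbols and positions came from RefSeq (GRCm38.p6, the assembly of mm10), which matched 10658 of 10730 members. The named genes were the 15 highest and 15 lowest called genes by the interval bound nearest 0, without unnamed models, receptor segments and rRNA genes, plus members of the lists, Xist and Y-linked genes. A few genes that this rule names are not reported here. The members and the 57 lists were chosen with earlier results of these data known, and 2 lists were added after the values were seen. The interval calculation was tested on simulated data. The software was numpy 2.4.6, scipy 1.17.1 and pandas 2.3.3 under Python 3.11.15, with figures from matplotlib 3.10.9. Scaling, normalization, the added count and the filter were varied, as given at the end.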

Additional observations from a re-analysis of the deposited data

Results flagged for a closer look

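Gene lists with at least 5 genes at level in both organs whose FFPE minus frozen median ran opposite ways in kidney and in another organ, by at least 0.5 on the log2 scale on both sides, are given as values, and the differences between organs were not tested. Over the 9 mitochondrially encoded protein genes at level in kidney and brain, the median was 0.75 in kidney and -0.78 in brain. Over 5 cardiomyocyte genes at level in both, the median was -1.07 in kidney and 0.59 in brain. As a baseline, the median of 16 common reference genes was -0.01 in kidney and -0.55 in brain.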

How the results depend on the processing

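No paired analysis was possible because each preservation has 1 kidney column, and leaving out a library was not possible for the same reason. The main counts were 322 higher and 279 lower genes in FFPE kidney. They were 82 and 1701 with total gene counts as the scale, 145 and 586 with counts outside ribosomal genes, 668 and 1565 with no filter on level, and 126 and 103 with a log2 of at least 3 in either column. With a mean log2 of at least 1, 230 genes were higher and 184 lower. With the interval wholly beyond 2-fold, 104 were higher and 80 lower. Counts stayed within 1.5 times with median centring (250 and 341), quantile normalization (270 and 327) and 2 added counts (300 and 256). The median of all members moved by -0.63 with totals, to -0.55, and by -0.30 with counts outside ribosomal genes, to -0.22. Of the list medians of at least 0.5 in size, the podocyte median turned to -0.13 with totals, the neuron and glia median to -0.36 with no filter and the adipocyte median to -0.63 with a mean log2 of at least 1. Of the values of Xist, the Y-linked members and the 15 highest and 15 lowest genes under these alternatives, 230 stayed, 21 moved and 0 changed direction. That 0 gives no support, because these genes were picked as extremes or lay below 0, and the median moved by at most -0.63. A change of filter leaves a gene's value as it was, and genes outside a filter left the tally. With 1 library a side, the spread between animals, tissue blocks and library preparations was not measured, and sex, feeding, time of day and preservation cannot be told apart in any kidney value. A gene at the member level had 38.5 counts in FFPE and 43.3 in frozen kidney, which gives wide intervals.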

Other observations

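The m6A machinery itself had 0 calls among 20 members, with a median difference of 0.07 that turned to -0.56 with totals as the scale. The median of all members was 0.08, and -0.55 with totals. Mettl3, the catalytic writer subunit, had 92 counts in FFPE and 100 in frozen kidney, and the demethylase genes Fto and Alkbh5 had 322 and 967 in FFPE against 339 and 971 in frozen. Of 24 Hox genes at level, which keep the positional identity of the kidney, 0 were called and 21 lay above equality, with a median of 0.35 (-0.28 with totals). Among 11 hypoxia response genes 2 were lower and 0 higher: Egln3, an oxygen-sensing hydroxylase gene, with 31 counts in FFPE and 104 in frozen kidney, and Car9, a carbonic anhydrase gene, with 12 and 46. Vegfa, on the same list, had 2089 and 1369 counts (log2 0.78). Of 9 tubule injury genes 1 was lower, S100a6, with 25 and 82 counts, and the median was -0.63. Clu and Spp1, which damaged tubules raise, had 788 and 2306 counts in FFPE, against 544 and 1881 in frozen kidney. Proteasome subunits had a median of -0.38 with 1 lower call among 34, Psmb5, with 122 and 293 counts. Among 13 replication-dependent histone members 2 were higher and 2 lower. H4c8 had 69 and 11 counts and H1f2 675 and 1759.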
